A study of Mus musculus with 1073 samples.

Results

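E8.25 HPCs are haematopoietic progenitor/colony-forming cells sorted from the mouse yolk sac at E8.25 (days of embryonic development) as TER119- CDH5+ CD41+ cells, the population the labels title EMP (erythro-myeloid progenitor). Its members were taken as every cell of that sort in the filtered tables, which gave 73 of the 926 cells of the series. The deposited column names place these cells at E8.5, while their titles and stage labels give E8.25, which is used here. Each cell was captured on a Fluidigm C1 chip, its full-length RNA was amplified and sequenced, and reads were counted per gene for 15967 genes. The cells were set against 3 populations of the same flow cell: 79 E8.5 endothelial cells (Endo, TER119- CD41- CDH5+), 66 E8.5 primitive erythroid cells (EryP, TER119+ CD41- CDH5-) and 37 E8.5 megakaryocytes (Mk, TER119- CDH5- CD41+). All came from untreated C57BL/6 embryos, with yolk sacs pooled before dissociation. Each population was 1 capture read in 1 lane, so stage, capture and lane cannot be told apart from the population, cells are not replicates, and no test was made between populations.

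Yolk sac blood forms in waves. Primitive erythroid cells and megakaryocytes appear first, and erythro-myeloid progenitors then arise from haemogenic endothelium, cells of the vessel wall that switch on Runx1 and take up a blood programme while vascular genes are still present. CD41, the integrin chain encoded by Itga2b, is among the earliest surface proteins of committed blood progenitors, and CDH5 (VE-cadherin) holds endothelial cells together, so a CD41+ CDH5+ gate takes cells that carry both proteins. Levels below are CPM values, counts scaled by the authors to a common depth per cell, which are not corrected for gene length, so levels are compared between cells and populations and not between genes.

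The 73 E8.25 HPCs held from 663946 to 3242276 counts each and 5941 to 10080 detected genes. Of 79 cells captured, 92.4% were kept by the authors' filter (exact 95% binomial interval 84.2 to 97.2%, counting error only). The Mk capture was the deepest of those compared, at 2625003 to 5234733 counts per cell, so shares of cells were also computed after thinning every cell to 600000 counts. In the kept cells 4 E8.25 HPCs stood apart, with 16.8 to 61.4% of counts from the 26 mitochondrial genes against 1.19 to 7.51% in the other 69, with 5941 to 7297 detected genes, and with deposited CPM values summing to 1468050 to 2483690 against 804150 to 1186640 in the others. Without them the lowest total was 1054343 counts, and values without them are given beside several results. A CPM sum over 1400000 was also reached by 3 Endo cells and 1 E8.5 HPC, and by 0 EryP and 0 Mk cells. In Endo the highest sum was 1660640 and the highest mitochondrial share 22.2%. Those cells were kept throughout, so values without the 4 cells leave out E8.25 HPCs only. No doublet caller was run. Xist, transcribed from the inactive X of female cells, and Y-linked transcripts (Ddx3y, Eif2s3y, Kdm5d and Uty) were looked for together. Both were present at 5 or more counts in 26 of 73 E8.25 HPCs and at 20 or more counts in 16 of 73. At 5 or more counts both were present in 59 of 79 Endo, 30 of 66 EryP and 16 of 37 Mk cells. The part of cell doublets or of reads from other cells in this was not tested.

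The 5 genes that mark the population were all detected, each in most cells. Itga2b was found in 93.2% of E8.25 HPCs (95% interval 84.7 to 97.7%), Cdh5 in 93.2% (84.7 to 97.7%), Runx1, the transcription factor required for the endothelial-to-haematopoietic switch, in 94.5% (86.6 to 98.5%), Gata1, the master regulator of erythroid and megakaryocytic cells, in 65.8% (53.7 to 76.5%), and Pf4, a platelet granule chemokine, in 63.0% (50.9 to 74.0%). After thinning, the shares were 90.4% for Itga2b, 91.8% for Cdh5, 93.2% for Runx1, 64.4% for Gata1 and 58.9% for Pf4. In GRCm38, Itga2b is at chr11:102453297-102470122 (minus strand), Cdh5 at chr8:104101625-104144511 (plus), Gata1 at chrX:7959260-7978071 (minus), Runx1 at chr16:92601466-92826149 (minus) and Pf4 at chr5:90772435-90773383 (plus).

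The lowest, median and highest Itga2b levels were 0, 37.0 and 409 CPM in E8.25 HPCs, 0, 23.2 and 752 CPM in Endo, 0, 0.993 and 260 CPM in EryP and 7.30, 138.2 and 614 CPM in Mk. The ranges overlapped in every pair, and Itga2b transcripts were in 91.1% of Endo cells, which were sorted as CD41-. Cdh5 was at 0, 149.01 and 4847 CPM in E8.25 HPCs, against 60.1, 461 and 1565 CPM in Endo and at most 7.49 CPM in EryP and 10.2 CPM in Mk. The highest Cdh5 value belonged to a cell that stood apart (640 CPM was the highest without those cells), and the mean of 248 CPM became 190 CPM without those 4 cells. Both genes encode proteins of the gate.

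Runx1 was not part of the gate. It was at 0, 135.8 and 624 CPM in E8.25 HPCs and at 0, 0 and 204 CPM in Endo, where 19.0% of cells had a count. EryP were at 0, 18.7 and 267 CPM and Mk at 19.6, 168 and 702 CPM, so the E8.25 HPC and Mk ranges overlapped over most of their length. Gata1 was at 0, 30.6 and 1068 CPM in E8.25 HPCs, was listed at 0 in all 79 Endo cells (3 of 79 cells, the limit used here for a count of 0, is a share of 3.80%), and ranged from 18.8 to 1240 CPM in EryP and from 0.584 to 939 CPM in Mk. E8.25 HPCs were spread between those extremes: 31 of the 73 cells had 100 CPM of Gata1 or more. The mean of Gata1 was at least 9234-fold higher than in Endo against a floor of 3 counts over that group.

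**Figure D1:**
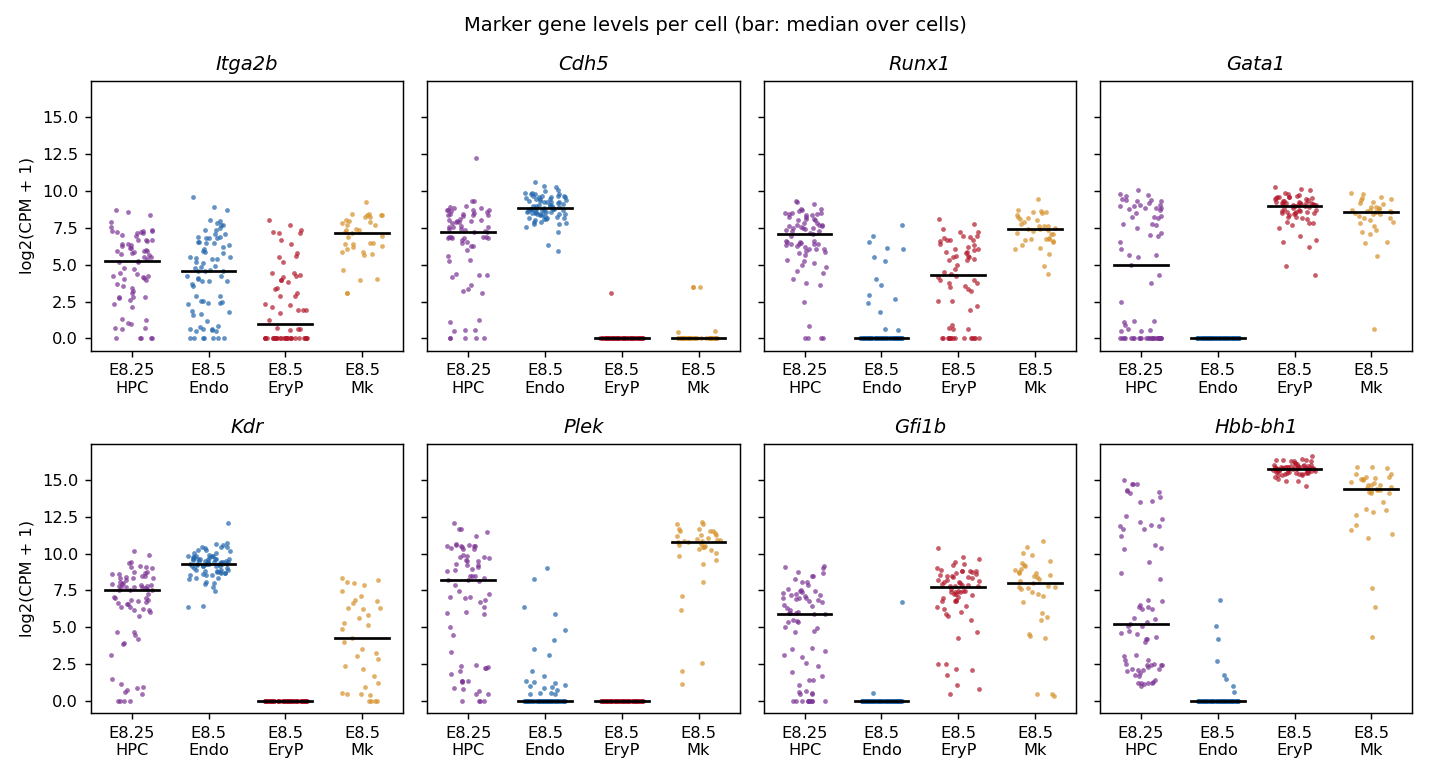
Levels of 8 genes in each cell of E8.25 HPC (73 cells), E8.5 Endo (79), E8.5 EryP (66) and E8.5 Mk (37), as log2(CPM + 1) on the vertical axis, with a bar at the median over cells. E8.25 HPCs spread from 0 to 1068 CPM of Gata1, which is at 0 in all Endo cells, and most hold Kdr, which is at 0 in all EryP.

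Sequence upstream of 3 genes is shown because Gata1 and Hba-x were among the genes that varied most between these cells and Itga2b encodes the gate protein of the blood side. The 250 bases before each RefSeq start (GRCm38.p6) are printed 5' to 3', with capitals at matches on either strand to GATAA (the core read by GATA factors), AGGAAG (an ETS core), TGTGGT (a RUNX core) and CACACCC (a KLF-type box). The windows were chrX:7967911-7968160 (minus strand) for Gata1, chr11:32276350-32276599 (plus) for Hba-x and chr11:102469884-102470133 (minus) for Itga2b. The gene spans given above are from GENCODE, whose starts differ from those of RefSeq, so these windows lie partly or wholly inside the GENCODE genes.
Gata1: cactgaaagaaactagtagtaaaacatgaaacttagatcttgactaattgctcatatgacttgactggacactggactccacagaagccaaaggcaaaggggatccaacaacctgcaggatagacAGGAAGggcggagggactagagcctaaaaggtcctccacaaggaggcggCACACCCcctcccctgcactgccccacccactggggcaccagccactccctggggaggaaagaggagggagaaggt
Hba-x: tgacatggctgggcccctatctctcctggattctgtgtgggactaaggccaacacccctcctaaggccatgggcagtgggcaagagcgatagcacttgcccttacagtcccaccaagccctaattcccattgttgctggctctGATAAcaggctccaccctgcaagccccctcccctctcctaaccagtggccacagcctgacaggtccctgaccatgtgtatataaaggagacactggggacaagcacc
Itga2b: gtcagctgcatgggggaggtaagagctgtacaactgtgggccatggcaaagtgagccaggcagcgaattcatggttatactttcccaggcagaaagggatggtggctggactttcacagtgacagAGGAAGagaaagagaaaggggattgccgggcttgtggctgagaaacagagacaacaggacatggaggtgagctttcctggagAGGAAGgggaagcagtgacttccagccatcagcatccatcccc

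Hba-x held 1 GATAA match, Gata1 held 1 AGGAAG and 1 CACACCC match, the latter ending 69 bases before the start, and Itga2b held 2 AGGAAG matches, the nearer ending 37 bases before the start. Of 32851 upstream windows of the same length, 22.6% held GATAA, 29.5% AGGAAG, 14.0% TGTGGT and 6.93% CACACCC. A match describes the letters only and is no evidence of binding.

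Endothelial genes were lower in E8.25 HPCs than in Endo and higher than in EryP and Mk. All 30 listed endothelial genes were in the table, and 29 of them had a mean level in E8.25 HPCs between those of Mk and Endo, the exception being Etv2. Against Endo, 19 of the genes passed the filter (a mean of 100 CPM or more and detection in at least 50% of cells in either population). Of these 11 passed through their level in Endo alone, so no count of 4-fold genes among them is read. Without the filter, the 30 listed genes had a median log2 ratio of -1.89 over Endo. Over all 2783 genes that passed, 4.74% were 4-fold lower and 1.69% 4-fold higher, with a median of 0.01. Without the 4 cells that stood apart, the number of all genes 4-fold higher than in Endo was 31 in place of 47. Log2 ratios are of mean CPM + 1, which understates the change of low genes.

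Kdr, the VEGF receptor that marks haemangiogenic mesoderm and vessels, was at 0, 184 and 1153 CPM in E8.25 HPCs and at 82.3, 636 and 4374 CPM in Endo, a log2 ratio of -1.79. Tek, the angiopoietin receptor, was at 0, 145.5 and 1008 CPM against 77.4, 681 and 1648 CPM. Lyve1, a hyaluronan receptor found on yolk sac endothelium and its progeny, was at 0, 181 and 5370 CPM against 113.2, 2701 and 6269 CPM, and was listed at 0 in every EryP and Mk cell. The ranges of all 3 genes overlapped between E8.25 HPC and Endo while the medians of E8.25 HPCs were lower. Genes with lower means still were Clec14a and Stab2, endothelial surface lectin and scavenger receptors, with log2 ratios of -3.91 and -3.87. Cd34, a sialomucin shared by endothelium and blood progenitors, differed little, with medians of 224 and 262 CPM and a log2 ratio of -0.24.

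All 30 endothelial genes had a higher mean in E8.25 HPCs than in EryP, and 29 of 30 a higher mean than in Mk. The 8 that passed the filter in either comparison did so through E8.25 HPCs alone, so no count of 4-fold genes among them is read. Over all genes, 5.83% of 2728 were 4-fold higher and 3.12% lower than in EryP, and 2.85% of 2598 were higher and 1.04% lower than in Mk. Log2 ratios over Mk were 1.62 for Kdr, 1.61 for Tek, 6.67 for Cd34 and 7.08 for Cdh5. Lyve1 was at least 24120-fold higher than in Mk against the floor.

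The 14 Notch and arterial genes were sparse, found on average in 22.4% of E8.25 HPCs against 39.3% of Endo, 2.92% of EryP and 5.21% of Mk cells. The mean of 10 of the 14 lay between those of Mk and Endo. Notch1, the receptor required for arterial identity, had means of 6.28 CPM in E8.25 HPC and 40.1 CPM in Endo, and its ligand gene Dll4 had 12.9 and 42.3 CPM. Gja4, a gap junction gene of arterial endothelium, was the other way, with 42.3 CPM in E8.25 HPC and 15.8 CPM in Endo, and a count in 46.6% and 13.9% of cells.

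Haematopoietic transcription factors were widespread. All 24 were in the table and 22 were found in at least 50% of E8.25 HPCs. The mean was higher than in Endo for 19 of the 24. Of the 8 that passed the filter, 5 did so through E8.25 HPCs alone, so no count of 4-fold genes among them is read. Gfi1b, a repressor of the endothelial programme and a driver of erythroid and megakaryocytic cells, was at 0, 57.8 and 559 CPM in E8.25 HPCs and detected in 2.53% of Endo cells. Nfe2, a regulator of platelet and globin genes, averaged 81.8 CPM and was listed at 0 in every Endo cell. Ikzf2, an Ikaros-family factor, averaged 168 CPM against 4.78 CPM.

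Fli1 and Meis1 are shared by vessels and progenitors. Fli1, an ETS factor, was detected in every E8.25 HPC, at 31.7 (62.3 without the 4 cells that stood apart), 442 and 1336 CPM against 107.01, 662 and 1617 CPM in Endo. Meis1, a homeodomain factor of progenitors, had a mean of 389 CPM against 290 CPM in Endo and 401 CPM in Mk. Both had higher means in E8.25 HPCs than in EryP, where the mean was 4.15 CPM for Fli1 and 0 for Meis1. Neither gene separated every cell. The highest EryP cell had 39.5 CPM of Fli1, above the lowest E8.25 HPC, and some E8.25 HPCs were also at 0 for Meis1.

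Against Mk 0 of 11 transcription factors passed 4-fold in either direction, with a median log2 ratio of -0.32 against -0.10 over all genes, of which 2.85% were higher and 1.04% lower. Against EryP 11 passed the filter, 6 of them through E8.25 HPCs alone, so no count of 4-fold genes among them is read. Myb, needed for definitive but not primitive blood, was found in 71.2% of E8.25 HPCs, 62.2% of Mk, 16.7% of EryP and 1.27% of Endo cells, with means of 35.6, 14.5, 2.28 and 0.212 CPM. Kit, the stem cell factor receptor, was highest in E8.25 HPCs among the 4 populations, at 0, 62.4 and 468 CPM, with a mean of 102.1 CPM against 55.6 CPM in Endo, 19.9 CPM in Mk and 8.08 CPM in EryP. Kit was detected in 98.6% of E8.25 HPCs.

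Erythroid genes had lower means in E8.25 HPCs than in EryP and Mk, for every listed globin, haem synthesis and red cell gene in the table. All 7 globin genes had lower means than in EryP and Mk and higher means than in Endo. Against EryP, 8 haem synthesis enzymes and 14 red cell genes passed the filter, 6 and 11 of them through EryP alone. No count of 4-fold genes among them is therefore read. Over all listed genes in the table, the median log2 ratio over EryP was -3.26 for haem synthesis and -4.32 for red cell genes. Epb41, an erythrocyte skeleton protein also made in other cells, had a log2 ratio of -1.01.

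Hbb-bh1, the embryonic beta-like globin gene, was at 0.997, 37.1 and 31660 CPM in E8.25 HPCs, at 24909, 55436 and 99782 CPM in EryP and at 19.2, 21452 and 58584 CPM in Mk. It had a count in 10.1% of Endo cells and at least 1 in every E8.25 HPC, with 74.0% of the cells at 10 counts or more. A total of 28 of the 73 cells reached 100 CPM, and the highest value was inside the EryP range. Hba-x, the embryonic alpha-like globin gene, was at 0, 8.20 and 8021 CPM against 14453, 29808 and 61696 CPM in EryP, so the groups did not overlap. Hbb-y, a later embryonic beta-like gene, averaged 92.8 CPM against 20157 CPM in EryP and 5120 CPM in Mk, log2 ratios of -7.75 and -5.77. Slc4a1, the red cell anion exchanger, was found in 2.74% of E8.25 HPCs against 98.5% of EryP.

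Megakaryocyte genes stood between Endo and Mk. Of the 20 listed, 13 had a mean above Endo and below Mk. Against Mk, 18 of the 20 had a lower mean and 1 a higher mean. The filter was passed by 8, 5 of them through Mk alone, so no count of 4-fold genes among them is read. Plek, a protein kinase C substrate of platelets and leucocytes, was at 0, 293 and 4355 CPM in E8.25 HPCs, at 1.19, 1734 and 4464 CPM in Mk and at 0, 0 and 507 CPM in Endo. Itgb3, the integrin chain that pairs with CD41, was at 0, 85.1 and 1049 CPM against 13.8, 412 and 1422 CPM in Mk. The levels of both genes overlapped between the populations.

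Single megakaryocyte genes ranged from 0 to 97.3% of E8.25 HPCs, the latter for Itgb3. Thbs1, a platelet granule protein, was found in 21.9% of E8.25 HPCs and every Mk cell, with a log2 ratio of -4.58. Vwf, the platelet adhesion protein, averaged 0.13 CPM against 35.9 CPM in Mk. Gp1bb and Ppbp were at 0 in every E8.25 HPC.

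**Figure D2:**
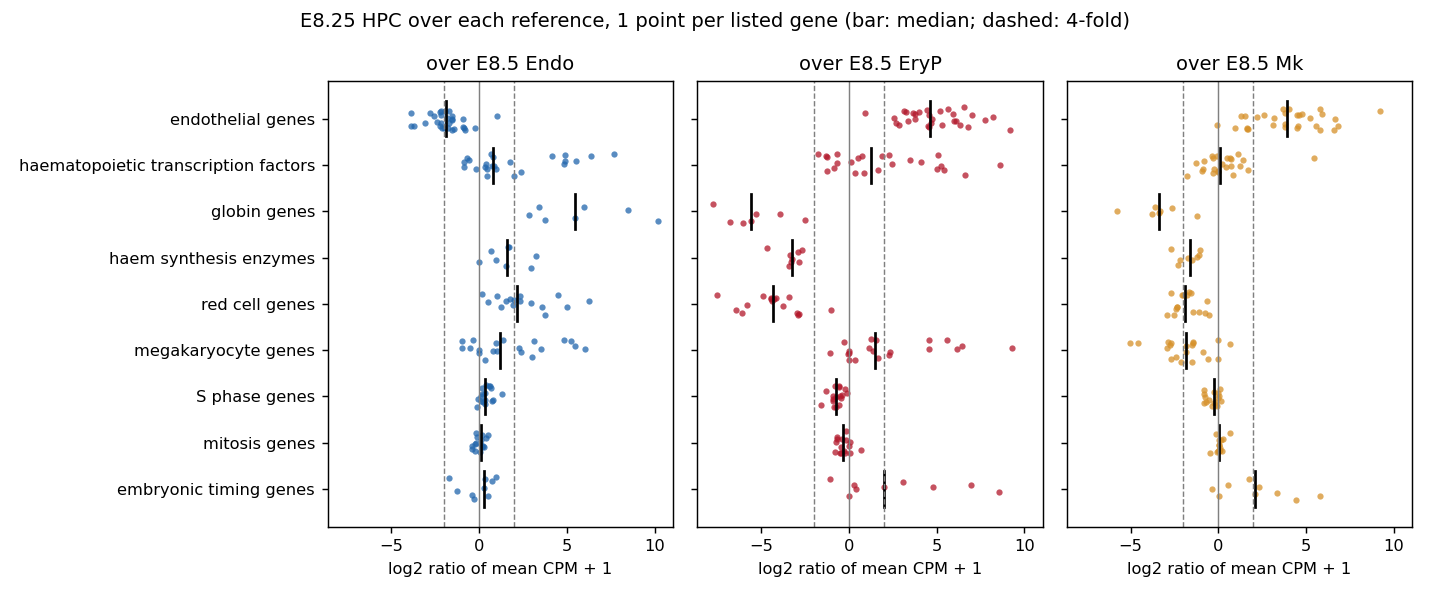
Log2 ratio of mean CPM + 1, E8.25 HPC over E8.5 Endo, EryP and Mk (horizontal axis), with 1 point per gene of 9 lists, a bar at the median of the listed genes in the table and dashed lines at 4-fold. Endothelial genes fall left of 0 over Endo and right of 0 over EryP and Mk, globin and red cell genes the reverse, and the S phase and mitosis genes stay near 0.

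Among cytokine receptors, Csf3r, the granulocyte colony-stimulating factor receptor, was found in 57.5% of E8.25 HPCs and 16.5% of Endo cells, and was listed at 0 in EryP and Mk (limits of 3 cells, or 4.55% and 8.11%). Csf2rb, the shared chain of the interleukin 3 and GM-CSF receptors, was lower than in Mk, with a log2 ratio of -3.33. Csf1r, the macrophage growth factor receptor, was found in 15.1% of the cells with a highest value of 70.6 CPM, and Flt3 and Il7r, receptors of lymphoid progenitors, in 0 of the 73 (a limit of 3 cells, or 4.11%).

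Granulocyte and mast cell genes were sparse. Of the 9 granulocyte and mast cell genes in the table, 3 were at 0 in every E8.25 HPC, and Mpo, myeloperoxidase, was found in 16.4% of them. Of the 16 macrophage and leucocyte genes 5 were found in at least 50% of E8.25 HPCs, and they were found on average in 31.5% of these cells, 15.7% of Endo and 17.7% of Mk. Laptm5, a lysosomal protein of blood cells, was found in 94.5% of E8.25 HPCs with a log2 ratio of 2.23 over Endo and 0.73 over Mk. Rac2, a GTPase of blood cells, was found in 57.5% of E8.25 HPCs and 3.80% of Endo. Cx3cr1 and C1qc, markers of macrophages, were at 0, C1qb was in 1.37% of cells and Ptprc, which encodes CD45, in 1.37%. Fcer1g, an adaptor of Fc receptors, was found in 64.4% of E8.25 HPCs, 62.2% of Mk and 11.4% of Endo. Mrc1, the mannose receptor of macrophages and of yolk sac endothelium, averaged 164 CPM against 1559 CPM in Endo.

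Genes of other yolk sac tissues were found in few cells. The summed level of the 12 mesenchymal genes ranged from 0 to 957 CPM with a median of 1.82 CPM, Hand1 was at 0 in every cell and Col1a1 was in 1.37%. The 6 mesoderm genes summed to 0 to 45.3 CPM, with T and Mesp1 at 0. Of the 12 visceral endoderm markers listed 2 were in the table and could be examined, of which Ttr was at 0 and Apoa1 in 1.37% of the cells.

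Cell cycle genes were detected in all populations. All 17 S phase genes and all 16 mitosis genes were found in at least 50% of E8.25 HPCs, and 0 of those that passed the filter differed 4-fold from Endo, EryP or Mk. Since few of all genes did so (1.69 to 5.83% higher and 1.04 to 4.74% lower), a count of 0 among so few genes is near the background. The median log2 ratio of the S phase genes was 0.31 over Endo, -0.65 over EryP and -0.24 over Mk. Of genes that mark embryonic timing, Hmga2 and Lin28a, which are high in fetal stem and progenitor cells, were found in 100% and 93.2% of E8.25 HPCs. Hmga2 had a mean of 406 CPM in E8.25 HPC and 502 CPM in Endo, against 0.0553 CPM in EryP and 6.26 CPM in Mk. Lin28a averaged 125.2 CPM, or 66.5 CPM without the 4 cells that stood apart, against 101.8 CPM in Endo. Against Mk and against EryP 8 timing genes passed the filter, 5 and 4 of them through E8.25 HPCs alone. No count of 4-fold genes among them is therefore read. Of the 9 listed, 8 had a higher mean than in Mk and 1 a lower mean, and the same numbers held against EryP. Egr1, an immediate early gene, averaged 22.5 CPM against 201 CPM in Mk, and Dusp1 was the gene of that list 4-fold lower than in Endo.

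Single E8.25 HPCs carried vascular and blood genes together. A total of 67 of the 73 cells (91.8%, 95% interval 83.0 to 96.9%) had at least 3 of 6 endothelial genes (Kdr, Tek, Tie1, Pecam1, Cldn5, Esam) and at least 3 of 6 haematopoietic genes (Runx1, Gata1, Gata2, Tal1, Gfi1b, Myb). The same was true of 14 of 79 Endo cells (17.7%), 0 of 66 EryP and 28 of 37 Mk cells (75.7%). It was also true of 84 of 89 E8.5 HPCs of the same flow cell (94.4%), so it was not particular to E8.25 HPCs. These values are without thinning, and after thinning 62 of the 73 E8.25 HPCs (84.9%) had both groups. With 10 counts required for each gene the numbers were 53 of 73 E8.25 HPCs (72.6%), 8 of 79 Endo, 14 of 37 Mk and 72 of 89 E8.5 HPCs. Among the 47 E8.25 HPCs without Xist and Y-linked transcripts together, 43 had both groups (91.5%).

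Signature genes widened this count. For each reference the 50 genes with the largest difference in mean log2(CPM + 1) to the higher of the other 2 were taken, and detection was counted after thinning. The genes were chosen on these same reference cells, so the choice itself drives the reference ranges apart. A place between the ranges is therefore a description and is not read as a result. The 50 Endo genes were found in 46 to 50 per Endo cell, 1 to 13 per Mk cell and 0 to 6 per EryP cell. E8.25 HPCs had 16 to 50, with a median of 42. A total of 24 of the 73 were inside the Endo range, 49 were between the highest Mk or EryP cell and the lowest Endo cell, and 0 were at or below the highest Mk or EryP cell. The lower end of the Endo range came from a single cell with 46 genes, and every other Endo cell had 49 or 50. The numbers inside and below the Endo range therefore rest on that cell. With 10 counts required, the E8.25 HPC range was 2 to 50, and 14 of the 73 cells fell in the Mk range. Mk signature genes numbered 10 to 49 in E8.25 HPCs, 26 to 50 in Mk and 4 to 17 in Endo, and 53 of the 73 cells were in the Mk range. EryP signature genes numbered 4 to 42 in E8.25 HPCs, 39 to 50 in EryP, 8 to 47 in Mk and 2 to 13 in Endo. Of the 73 cells, 68 were in the Mk range, with a median of 13 against 29 in Mk.

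By Spearman correlation over the union of the 3 signatures, 49 of 73 E8.25 HPCs (67.1%, 95% interval 55.1 to 77.7%) were closest to Endo, 22 (30.1%, 19.9 to 42.0%) to Mk and 2 (2.74%, 0.334 to 9.55%) to EryP. Of the reference cells, 79 of 79 Endo, 66 of 66 EryP and 35 of 37 Mk were closest to their own population when left out of its mean. The signature genes had been chosen with these cells included, so this is no independent check of the shares. The correlation of E8.25 HPCs with Endo ran from -0.25 to 0.86 across cells, with a median of 0.47. The Endo signature contains Cdh5, a gene of the gate. Without the genes tied to the gate the shares were the same, 67.1%, 30.1% and 2.74%.

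**Figure D3:**
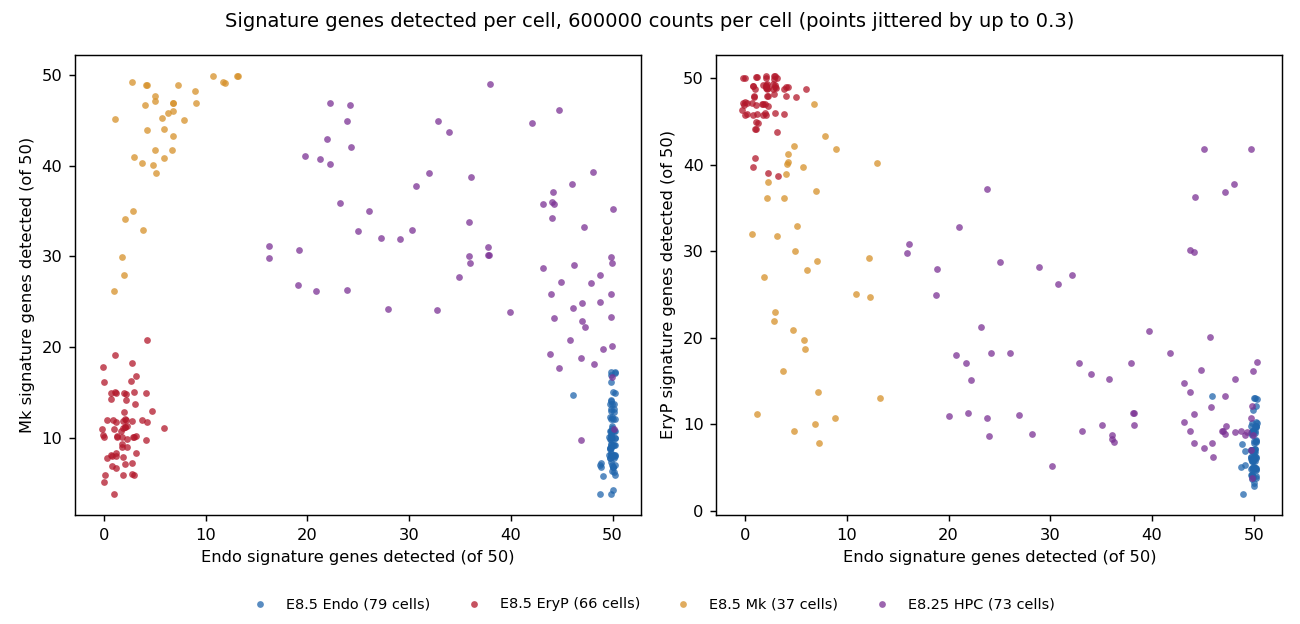
Number of Endo signature genes detected in each cell (horizontal axis) against the number of Mk (left) or EryP (right) signature genes (vertical axis), all out of 50, after thinning every cell to 600000 counts, with 1 point per cell and points jittered by up to 0.3. With 16 to 50 Endo genes, 49 E8.25 HPCs lie between the Endo cells at the right and the Mk and EryP cells at the left, and 24 lie within the Endo range. The lower end of the Endo range, at 46 genes, is a single cell. The signature genes were chosen on the reference cells, which by itself drives the reference groups apart.

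Some cells near the Endo end still held many genes of a blood signature. The Endo range used here again has its lower end at the single low Endo cell. Of the 24 cells inside the Endo range, 7 had more EryP signature genes than any Endo cell (over 13, with a highest count of 42), and 2 of these 7 carried Xist and Y-linked transcripts together. Likewise 21 of the 24 had more Mk signature genes than any Endo cell (over 17), of which 8 carried both. The EryP and Mk signatures were chosen for low levels in these Endo cells, which keeps the Endo counts low.

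Gata1 and globin went together among the 73 cells, and vascular genes went the other way. Of the 31 cells with 100 CPM or more of Gata1, 24 also had 100 CPM or more of Hbb-bh1, against 4 of the 42 other cells (2 of 38 without the 4 cells that stood apart), with a Spearman's rho of 0.77 over the 73 cells. Of the same 31 cells, 20 had 100 CPM of Gfi1b, against 8 of 42, and 12 had 100 CPM of Kdr, against 34 of 42. Cd34 was at that level in 12 of the 31 and 33 of the 42, Cdh5 in 13 and 34, and Lyve1 in 12 and 31.

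Runx1 divided the cells less. Of the 38 cells with 100 CPM of Runx1 or more, 24 had 100 CPM of Kdr, against 22 of the other 35, and 22 had 100 CPM of Cdh5, against 25. Plek was not tied to Gata1: 20 of the 31 cells with 100 CPM of Gata1 and 26 of the 42 others had 100 CPM of Plek.

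Scores, the mean log2(CPM + 1) of a list in a cell, were correlated across the 73 cells as a description. These points share a library, depth and the scaling of each cell. Spearman's rho of the endothelial score was -0.57 with the globin score, -0.61 with the red cell score, -0.41 with the haematopoietic transcription factors and -0.24 with the megakaryocyte score. Globin and red cell scores went together (0.82), as did megakaryocyte genes and transcription factors (0.51). The endothelial score had a rho of 0.20 with total counts and 0.29 with the number of detected genes. The endothelial score ran from 0.54 to 6.77 in E8.25 HPCs, from 3.00 in the lowest to a median of 6.44 in Endo and from 0.24 to 1.27 in Mk.

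**Figure D4:**
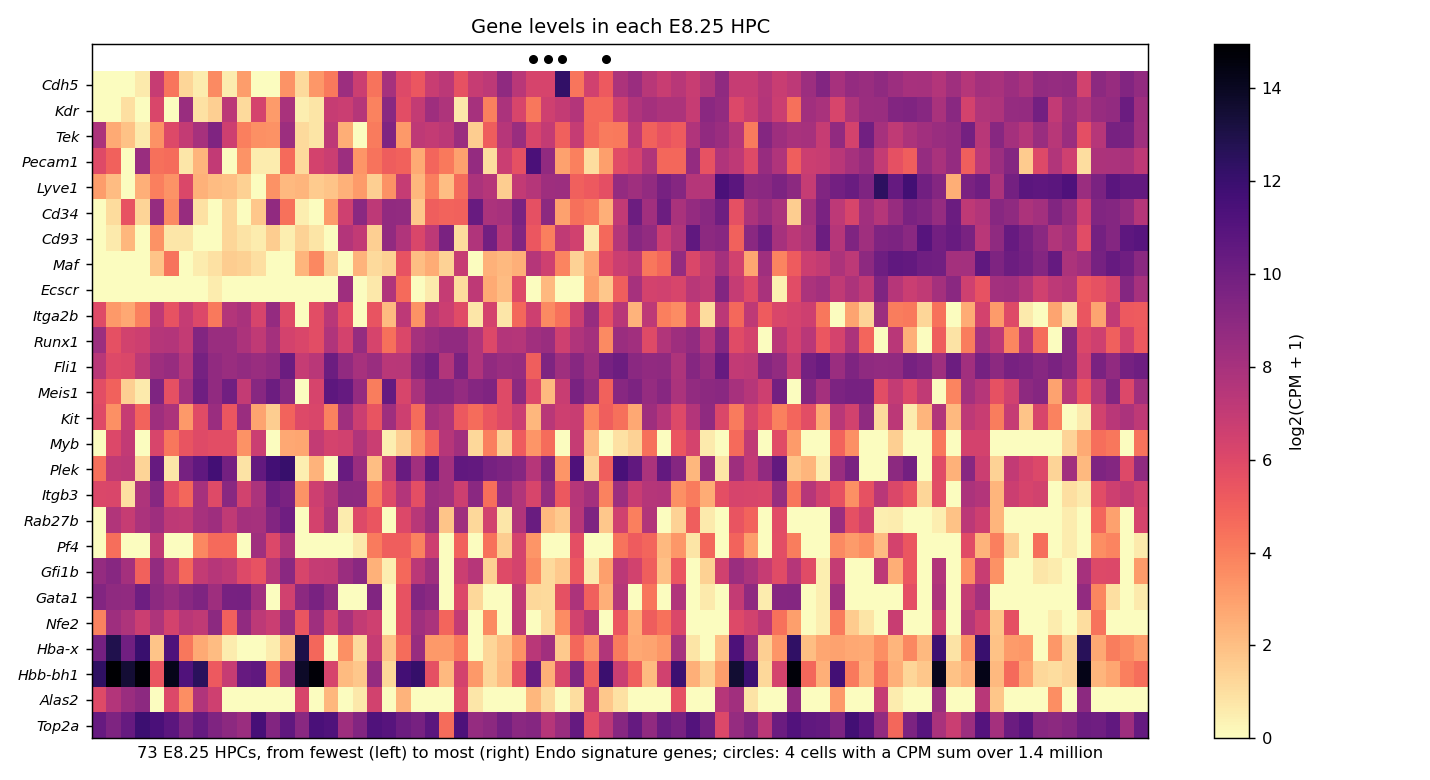
Levels of selected genes (rows) as log2(CPM + 1) in the 73 E8.25 HPCs (columns), ordered from the fewest to the most Endo signature genes detected, with circles over the 4 cells that stood apart. Cells at the left hold Gata1, Gfi1b and often Hbb-bh1, and cells at the right hold Lyve1, Cd93 and Maf with little Gata1, apart from single cells with high Hbb-bh1.

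The 20 genes with the largest spread among E8.25 HPCs with a mean of at least 100 CPM included Hbb-bh1, Gata1, Plek, Hba-x, Cd93, Maf, Lyve1, Igf1 and Rab27b. Cd93, a receptor of endothelium and early progenitors, was at 0, 190 and 1977 CPM, and Maf, a basic leucine zipper factor, at 0, 44.7 and 1576 CPM. Maf averaged 1651 CPM in Endo and was listed at 0 in EryP. The first principal component of the 1000 most variable genes held 12.4% of their variance. Its ends included Hbb-bh1, Gata1, Smim1, Gucy1a3, Rgs10, Nfe2 and Foxh1 on 1 side and Cd93, Plk2, Ecscr, Maf, Sepp1, Lyve1, Igf1 and Adgrf5 on the other. The second component (5.05%) had a rho of -0.88 with the number of detected genes.

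Genes were ranked for being higher in E8.25 HPCs than in all 3 references. By the smallest of the 3 log2 ratios, the first 15 were Secisbp2, Tet1, Angpt1, Zhx1, Cdc42ep1, Armc8, Ccnd2, Herc2, Usp32, Dnmt3b, Lyn, mt-Co3, Cstf3, mt-Co2 and Tmed7. Only 2 of them, Dnmt3b and Ccnd2, were among the first 15 without the 4 cells that stood apart. Secisbp2, for example, fell from a mean of 311 CPM to 42.9 CPM without those cells, and its median was 36.5 CPM.

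Dnmt3b, a de novo DNA methyltransferase, was at 0.395, 199 and 1153 CPM in E8.25 HPCs, at 0, 29.5 and 891 CPM in Endo, at 0, 0.577 and 301 CPM in EryP and at 0, 90.2 and 244 CPM in Mk, with log2 ratios of 1.77, 3.48 and 1.55. Ccnd2, cyclin D2 of the G1 phase, had medians of 236, 121.6, 73.0 and 28.1 CPM in the same order and a mean of 537 CPM that became 405 CPM without the 4 cells. Both overlapped all 3 references in range. Kit, Laptm5 and Ikzf2 entered the first 15 without those cells.

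In the E8.5 HPC population of the same flow cell (89 cells), mean levels were 92.4 CPM for Itga2b, 124.3 CPM for Cdh5, 229 CPM for Runx1, 199 CPM for Gata1 and 41.5 CPM for Pf4, and Ptprc was found in 24.7% of the cells against 1.37% at E8.25.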

How the data were processed

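Single yolk sac cells were sorted, captured on a Fluidigm C1 chip with Nextera XT libraries, and sequenced. The kit does not mark strand. Per the labels, reads were aligned with Subread to GRCm38 and counted per gene with featureCounts by the authors, with versions not given in the sources used here. The authors deposited raw counts for 1073 captured cells and for 926 cells after their filter, and a signal table of CPM values made with size factors per cell. Every table column was mapped to a population from the labels, with 0 left unmapped.

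From these, levels were compared as log2 ratios of mean CPM + 1 between populations, with a gene called past 4-fold if its mean was 100 CPM or more and it was detected (1 count) in at least 50% of cells in either population. For shares of cells the 95% interval is that of Clopper and Pearson (exact) and covers counting error alone. A signature is the 50 genes of a reference with the largest excess of mean log2(CPM + 1) over the higher of the other 2. Thinning drew 600000 counts per cell without replacement. Named genes were those of 18 gene lists, the 8 genes at each end of each comparison, the 15 highest in E8.25 HPCs, the 20 most variable, and 8 at each end of the first components. Scripts were tested on simulated data. Scripts ran in Python 3.11.15 with scipy 1.17.1, numpy 2.4.6 and pandas 2.3.3, and figures were drawn with matplotlib 3.10.9. Gene positions came from GENCODE and upstream sequence from RefSeq, both on GRCm38, which matched 190 of 254 listed genes for the latter. The cells and gene lists were chosen with earlier results of these data known. Some genes that the rule named are not reported here.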

Additional observations from a re-analysis of the deposited data

How the results depend on the processing

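Each population was 1 capture in 1 lane, so no result has a replicate check, and no paired analysis was possible because the results come from no test. CPM values of the 4 cells that stood apart change means of single genes, and low shares rest on few counts per cell.

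With 10 counts required for detection, the shares of E8.25 HPCs were 78.1% for Itga2b, 53.4% for Gata1 and 47.9% for Pf4, and 72.6% of cells had endothelial and haematopoietic genes together. Of the genes compared, 1.69% were 4-fold higher and 4.74% lower than in Endo, 5.83% and 3.12% than in EryP, and 2.85% and 1.04% than in Mk. The number of such genes moved by more than 1.5 times in the following cases. With medians over cells the shares were 4.42% and 11.4%, 9.90% and 5.10%, and 4.62% and 3.54%. With no filter (15967 genes) they were 2.79% and 4.69%, 9.41% and 1.96%, and 5.67% and 1.53%. With a filter of 30 CPM and 25% of cells (6309, 6113 and 6066 genes) they were 2.25% and 4.72%, 8.24% and 2.24%, and 4.22% and 1.17%. The share higher than in Endo was 1.12% with CPM by library size (30 of 2670 genes), 1.05% with counts summed over cells (28 of 2674) and 1.12% without the 4 cells (31 of 2758). The rho of endothelial genes and haematopoietic transcription factors was -0.59 without cells that carry Xist and Y-linked transcripts together. The log2 ratio of Secisbp2 changed sign, to -0.051 over EryP and -0.25 over Mk with medians, and to -0.37 and -0.29 without the 4 cells. Over Mk, Herc2 changed to -1.10 and -0.44, and Usp32 to -2.41 and -0.59. Apart from the filters, which change the genes compared, the cause was not tested. Leaving out the 4 cells and leaving out gate genes from the signatures were chosen after seeing the data. Of the main results under their alternatives, 88 values stayed within 1.5 times, their interval or 0.1 of rho, and 26 did not. That tally leaves out ratios of single genes. Of the listed and named genes past 4-fold, few ratios stayed within 1.5 times with medians: 5 of 43 over Endo, 16 of 81 over EryP and 4 of 48 over Mk. With a pseudocount of 10, 23, 33 and 30 did so, and without the 4 cells 38, 73 and 40.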
